A study of Mus musculus with 2 samples.

Results

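The 8 genes described here encode proteins that neutrophils store in their granules, and they were chosen by name from all genes counted. Elane, Mpo, Prtn3 and Ctsg stood for the primary granules, and Ltf, Lcn2, Camp and Ngp for the secondary granules. Each of the 8 symbols matched 1 gene, and all 8 were followed through progenitors, immature and mature neutrophils and monocytes.

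The study asked how a lymphatic deficiency changes the cells of the inflamed temporomandibular joint (TMJ), the jaw joint. It dissociated TMJ tissue of WT and Prox1 mutant C57BL/6 mice for droplet single-cell RNA sequencing. Both groups had received complete Freund's adjuvant (CFA), an oil with killed mycobacteria that sets off inflammation, and neither group lacked this treatment. The labels give an age of 8 to 10 weeks, and the study's methods describe the mice as female and the mutant as Prox1+/-, a germline heterozygote in which every cell carries the changed allele. There were 2 libraries, 1 per genotype, so no difference between genotypes could be compared with a spread between animals, and no p-value is given. How many mice went into a library is not given in the sources used here.

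Neutrophils fill their granules in sequence while they mature in the marrow. Promyelocytes make the primary (azurophil) granules, loaded with serine proteases and myeloperoxidase, and myelocytes and metamyelocytes make the secondary (specific) granules, loaded with iron-binding and antimicrobial proteins. Cells that have left the marrow carry the proteins but little of the transcripts. In this tissue the dissected joint can hold pieces of bone marrow and blood beside the synovium.

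Among the primary members, Elane encodes neutrophil elastase, Prtn3 proteinase 3 and Ctsg cathepsin G, all serine proteases, and Mpo encodes the peroxidase that makes hypochlorous acid. Among the secondary members, Ltf encodes lactoferrin, which binds iron, Lcn2 encodes lipocalin 2, which binds bacterial siderophores, Camp encodes the cathelicidin antimicrobial peptide, and Ngp encodes neutrophilic granule protein, a cystatin-like protein. In GRCm38, Prtn3 (chr10:79874476-79883174, plus strand) and Elane (chr10:79886247-79888215, plus strand) lay 3072 bases apart with no coding gene between them. Mpo lay at chr11:87793581-87804413 and Ctsg at chr14:56099881-56102574 on the minus strand. Camp (chr9:109847379-109849617, minus strand), Ngp (chr9:110419747-110423012) and Ltf (chr9:111019271-111042767) shared chromosome 9, with 8 coding genes between Camp and Ngp and 20 between Ngp and Ltf. Lcn2 lay at chr2:32384633-32388252 on the minus strand. The annotated Prtn3 gene overlapped Plppr3 and the annotated Mpo gene overlapped Gm11505, with strand not considered. Whether this affected the counts was not tested.

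The promoters are shown because the members of each kind moved together. The sequences come from RefSeq (GRCm38.p6), run 5′ to 3′ on the gene's strand, and stop before the first base that the annotation places in an exon. Capitals mark matches to GAGGAAG, the purine-rich core bound by PU.1, or to TTGCNNAA, a C/EBP motif, on either strand.
Elane promoter, chr10:79886062-79886246, plus strand: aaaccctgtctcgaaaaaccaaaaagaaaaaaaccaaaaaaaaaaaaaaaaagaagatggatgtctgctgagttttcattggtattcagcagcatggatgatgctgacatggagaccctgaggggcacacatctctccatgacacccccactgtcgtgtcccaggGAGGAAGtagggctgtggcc
Prtn3 promoter, chr10:79879417-79879613, plus strand: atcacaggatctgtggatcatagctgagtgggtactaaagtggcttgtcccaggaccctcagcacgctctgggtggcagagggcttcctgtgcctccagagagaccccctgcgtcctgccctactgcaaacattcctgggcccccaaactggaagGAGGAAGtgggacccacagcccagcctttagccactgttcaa
Mpo promoter, chr11:87793534-87793580, plus strand: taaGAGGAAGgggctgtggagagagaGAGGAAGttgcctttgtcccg
Ltf promoter, chr9:111019042-111019270, plus strand: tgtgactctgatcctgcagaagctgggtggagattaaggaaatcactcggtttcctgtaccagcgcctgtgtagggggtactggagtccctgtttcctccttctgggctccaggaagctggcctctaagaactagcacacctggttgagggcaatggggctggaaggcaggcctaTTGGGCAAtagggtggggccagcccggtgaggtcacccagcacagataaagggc
Ngp promoter, chr9:110419558-110419746, plus strand: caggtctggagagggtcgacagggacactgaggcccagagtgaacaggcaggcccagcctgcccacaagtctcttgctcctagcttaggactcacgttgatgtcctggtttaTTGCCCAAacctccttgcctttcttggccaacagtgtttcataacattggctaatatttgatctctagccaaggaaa

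In windows of 250 bases before the RefSeq start, GAGGAAG or its complement stood in 4 of 4 primary members and in 1 of 4 secondary members (Lcn2), against 10.6% of 32841 promoters. TTGCNNAA stood in 0 of 4 primary members and in 3 of 4 secondary members (Ltf, Lcn2 and Ngp), against 9.57% of promoters. The Camp window held neither. These windows can reach into annotated exons, and the Lcn2 window began inside one, so the Lcn2 matches lay past the first exon base. The letters TATAAA stood in 1 member, Ctsg, against 12.4% of promoters. The GENCODE start lay upstream of the RefSeq start in 7 of the 8 members, by up to 5191 bases (Prtn3), so the windows depend on the annotation. These matches describe letters and were not tested as binding sites.

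The WT library held 5709 barcodes and 53517206 UMIs (unique molecular identifiers, each 1 captured transcript), and the Prox1 mutant library held 7846 barcodes and 62446987 UMIs. After filtering, 4352 WT cells with a median of 6997 UMIs and 5757 mutant cells with a median of 4848 UMIs remained, and 10 barcodes occurred in both libraries. Prox1 itself gave 563 UMIs in the kept WT cells and 315 in the kept mutant cells. Of these, 296 lay in 1043 WT and 119 in 520 mutant endothelial cells, so the sums also reflect how many such cells were captured. The Prox1 transcript does not show by itself which alleles a heterozygote carries. Cells were clustered without the 8 members among the clustering genes, and clusters were named from other markers, so the members did not choose the classes directly, though genes that move with them could. Progenitors numbered 90 WT and 71 mutant cells, immature neutrophils 139 and 171, mature neutrophils 178 and 160, and monocytes 75 and 94. Levels are given in CPM, a gene's UMIs in 1000000 UMIs of all cells in the class, with exact Poisson 95% intervals. Intervals of shares and ratios are exact binomial ones, and those of a drop in log2 primary over secondary between classes are normal approximations. All of them cover counting error only.

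Each class but the monocytes joined 2 clusters, named here by a leading gene. The Gria3 progenitors (64 WT and 49 mutant cells) raised Cd34, Ms4a3, Gfi1, Flt3 and Cdk6 together with 4 monocyte markers, and the Angpt1 progenitors (26 and 22 cells) raised Kit, Cd34, Flt3, Cdk6 and Sox4. The Fcnb immature neutrophils (44 and 46 cells) raised Cebpe, Fcnb and 5 other immature markers, and 6 cell division genes summed to 2190 CPM in WT versus 2520 CPM in the mutant. The Ifitm6 immature neutrophils (95 and 125 cells) raised Cebpe, Ly6g and 3 other immature markers but also all 8 mature markers, and the division genes summed to 68.4 and 83.3 CPM. The Stfa2l1 (71 and 91 cells) and Csf1 (107 and 69 cells) mature neutrophils each raised all 8 mature markers, among them Cxcr2 and Il1r2. The monocytes raised Ccr2, Ly6c2, Vcan and 3 other markers.

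Among the 4 classes, primary granule transcripts peaked in the progenitors and secondary granule transcripts in the immature neutrophils, in both libraries. For the summed primary members, an unnamed mutant cluster led by Fmod, described among the flagged results, stood at 6489 CPM, above the mutant progenitors. In WT, Elane stood at 3028 CPM (2955 to 3102) in progenitors, 530 CPM in immature neutrophils, 5.42 CPM in mature neutrophils and 25.8 CPM in monocytes. In the mutant, Elane stood at 1573 CPM (1518 to 1630), 189 CPM, 9.79 CPM and 11.1 CPM in the same order. Progenitors were the highest of the 4 classes for Elane in both libraries, and immature neutrophils came next.

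Prtn3 followed the same course, with 3664, 344, 10.8 and 160.2 CPM in WT progenitors, immature neutrophils, mature neutrophils and monocytes. In the mutant, Prtn3 stood at 1589, 100.3, 8.28 and 23.0 CPM. Prtn3 thus fell from progenitors to immature neutrophils by 10.7-fold (9.87 to 11.5) in WT and by 15.8-fold (14.0 to 18.0) in the mutant. Mpo stood at 1278, 61.3, 8.13 and 8.60 CPM in WT and at 980.1, 25.4, 18.8 and 8.72 CPM in the mutant. Ctsg stood at 1150, 13.5, 2.71 and 12.9 CPM in WT and at 608, 4.85, 1.51 and 3.96 CPM in the mutant. Both genes were highest in progenitors among the 4 classes, although mast cells and basophils, described at the end, stood higher for Ctsg in both libraries and, with overlapping intervals, for Mpo in the mutant.

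The 4 primary members did not fall by the same fold between progenitors and immature neutrophils. Elane fell least, by 5.71-fold (5.36 to 6.09) in WT versus 8.31-fold (7.56 to 9.14) in the mutant. Mpo fell by 20.9-fold (17.5 to 25.1) in WT versus 38.7-fold (30.3 to 50) in the mutant. Ctsg fell most, by 85.1-fold (58.7 to 128) in WT versus 125-fold (73.1 to 236) in the mutant. The order Elane, Prtn3, Mpo, Ctsg was thus the same in both libraries, and neighbouring intervals did not overlap. In mutant immature neutrophils, however, Ctsg (4.85 CPM, 13 UMIs) lay below the highest of B cells, T cells and endothelial cells (5.98 CPM). Mpo (25.4 CPM) lay near theirs (21.6 CPM), so background limits these 2 mutant folds. In WT, 2 of 139 immature neutrophils held 50% of the Ctsg UMIs, and 2 held 50% of the Mpo UMIs.

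The secondary members took the opposite course. Camp rose from 1679 CPM in WT progenitors to 45311 CPM in immature neutrophils, and stood at 176 CPM in mature neutrophils and 33.3 CPM in monocytes. In the mutant, Camp stood at 163, 29666, 743 and 1142 CPM in the same order. Immature neutrophils were the highest of the 4 classes for Camp in both libraries. Of the Camp UMIs in mutant monocytes, 1 cell held 59.4%. Without the barcodes of highest Scrublet score, taken as likely doublets (2 cells read as 1), the Camp level of mutant monocytes was 44.4 CPM.

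Ngp stood at 1021, 33310, 324 and 22.6 CPM in WT and at 127, 29085, 1555 and 1025 CPM in the mutant. Ltf stood at 241, 7935, 65.1 and 14.0 CPM in WT and at 20.4, 9088, 686 and 451 CPM in the mutant. Lcn2 stood at 406, 12629, 1087 and 77.4 CPM in WT and at 74.3, 10473, 1724 and 488 CPM in the mutant. For each of these genes the immature neutrophils exceeded the other 3 classes of their library.

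**Figure D1:**
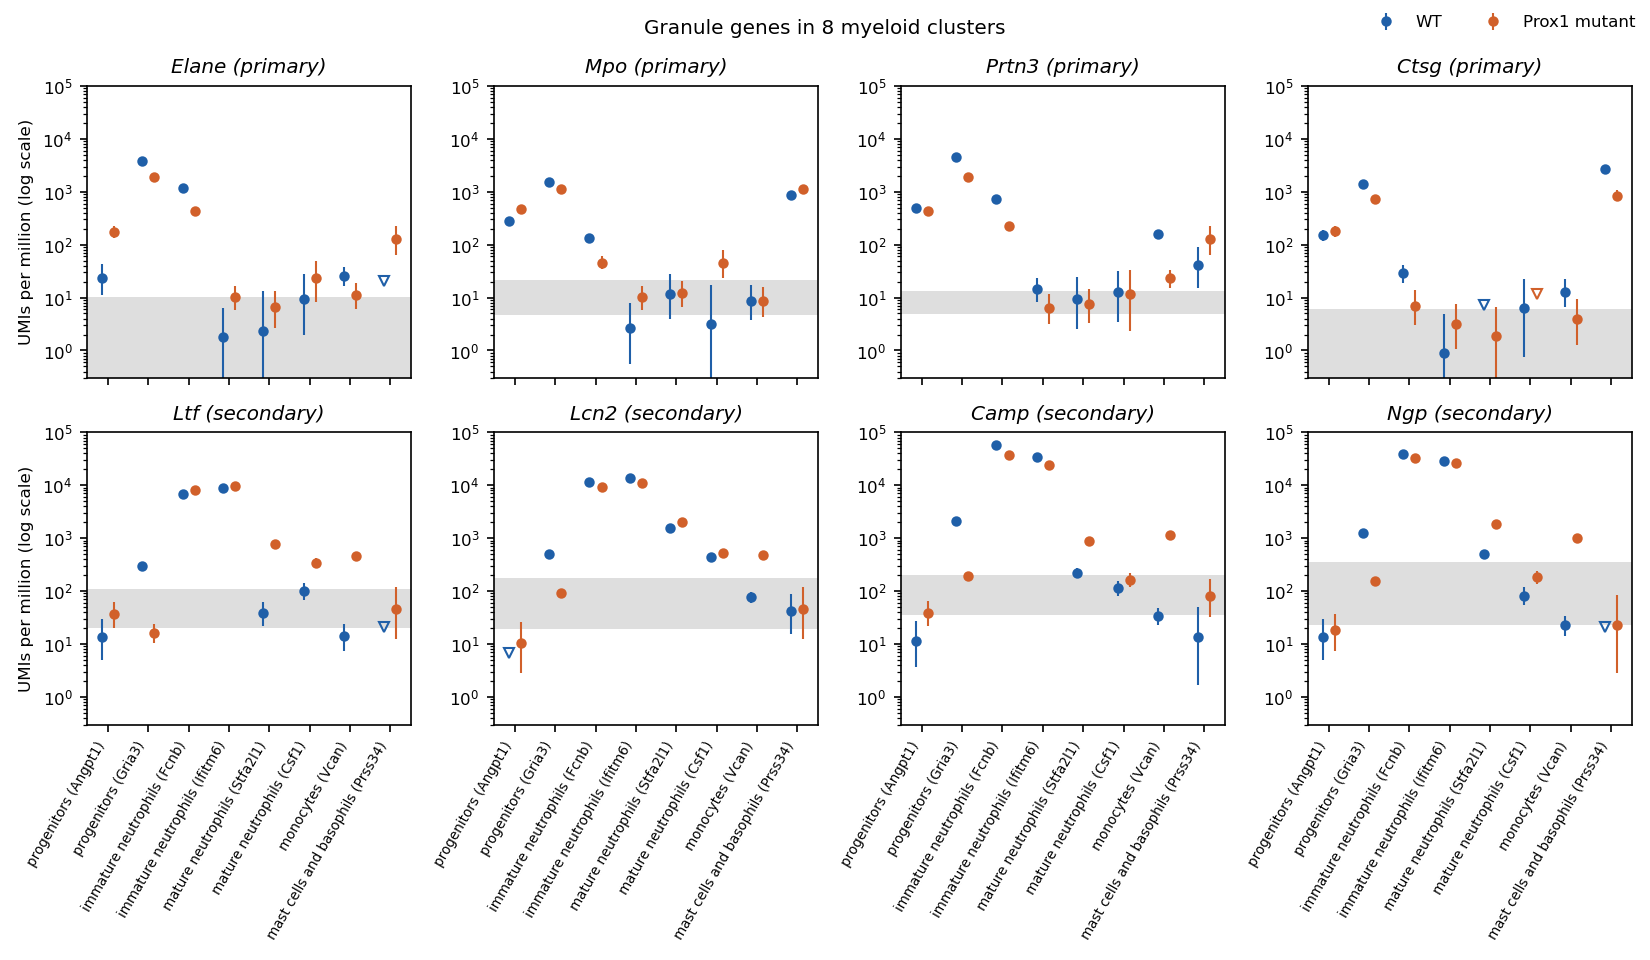
CPM of each of the 8 genes (log axis) in 8 myeloid clusters, WT and Prox1 mutant side by side, with exact Poisson 95% intervals, grey bands from the lowest to the highest level in B cells, T cells and endothelial cells of both libraries, and open triangles at the limit that a count of 0 allows. Elane and Prtn3 are highest in the Gria3 progenitors, Ctsg is higher in mast cells and basophils than there, and the 4 secondary genes are highest in the Fcnb or Ifitm6 immature neutrophils.

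Counted at a change of at least 2-fold among genes with 20 UMIs or more over both classes, 4 of 4 primary members were lower in immature neutrophils than in progenitors in WT, where 40.8% of 9833 genes were, and 4 of 4 in the mutant, where 44.7% of 9929 genes were. All 4 secondary members were higher in WT, where 8.58% of genes were, and all 4 in the mutant, where 7.89% were. The median log2 ratio was -3.90 over the primary and 4.99 over the secondary members in WT, against -0.75 over all genes tested. In the mutant the medians were -4.62 and 7.67, against -0.86 over all genes tested. Background in mutant progenitors, described below, limits the secondary median.

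Set against each other, the summed primary members outnumbered the summed secondary members in progenitors and fell far below them in immature neutrophils. WT progenitors held 19829 primary and 7276 secondary UMIs, and WT immature neutrophils held 1966 and 205530. Mutant progenitors held 9084 and 734 UMIs, and mutant immature neutrophils held 858 and 210028. The log2 of primary over secondary therefore dropped between the classes by 8.15 (8.08 to 8.23) in WT and by 11.56 (11.42 to 11.71) in the mutant. Mutant progenitors held Ltf at 20.4 CPM, Lcn2 at 74.3 CPM and Ngp at 127 CPM. These lay below the highest of mutant B cells, T cells and endothelial cells (110, 103 and 356 CPM). Only Camp (163 CPM) lay above theirs (96.6 CPM), so background limits the mutant drop.

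The secondary UMIs of the progenitors lay in few cells. In WT progenitors 2 cells held 50% of the secondary UMIs and 3 cells held 74.8%, while in mutant progenitors 1 cell held 55.4%. With likely doublets removed by their Scrublet score, the drop was 10.70 in WT and 11.92 in the mutant. Without the cell with the most UMIs of the summed genes in each class, it was 8.97 and 13.20.

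The 2 progenitor clusters differed in how much of each primary gene they held. In WT, Elane stood at 3781 CPM in the Gria3 and 23.0 CPM in the Angpt1 progenitors, a 165-fold difference (89.5 to 344). Mpo stood at 1528 and 280 CPM, a 5.46-fold difference (4.55 to 6.60). Elane and Mpo thus differed between the clusters by unequal folds.

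In the mutant, Elane stood at 1927 CPM in the Gria3 and 174 CPM in the Angpt1 progenitors, an 11.1-fold difference (8.71 to 14.4). Mpo stood at 1111 and 464 CPM, a 2.39-fold difference (2.05 to 2.81). Prtn3 was 9.04-fold (7.89 to 10.4) higher in the Gria3 than in the Angpt1 progenitors in WT and 4.29-fold (3.67 to 5.04) in the mutant, and Ctsg 9.39-fold (7.34 to 12.2) and 4.01-fold (3.14 to 5.19). All 4 genes were lower in the Angpt1 cluster in both libraries. Of the 67 Elane UMIs in mutant Angpt1 progenitors, 1 cell held 45.

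Gria3 progenitors differed from cell to cell in how many primary transcripts they carried. After each cell was thinned to 2000 UMIs, 5 or more primary UMIs and fewer than 5 secondary UMIs were left in 34 of 64 WT cells (53.1%) and 16 of 49 mutant cells (32.7%). Both kinds reached 5 UMIs in 5 WT cells (7.81%) and 1 mutant cell (2.04%), and neither kind did in 23 WT and 32 mutant cells. The primary UMIs of a Gria3 cell ran from 0 to 121 in WT with a median of 11, and from 0 to 86 in the mutant with a median of 1.

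Cells with both kinds of transcript were also found in the dividing, Fcnb immature neutrophils and in none of the Ifitm6 immature neutrophils. Among the Fcnb cells, 7 of 44 in WT (15.9%) and 3 of 46 in the mutant (6.52%) held 5 or more thinned UMIs of each kind. Among the Ifitm6 cells, 0 of 95 in WT and 0 of 125 in the mutant did. The median Fcnb cell held 264 secondary UMIs of 2000 in WT and 202.5 in the mutant, and 0 primary UMIs in both. Likely doublets were kept in these counts, and their part in cells with both kinds was not tested.

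**Figure D2:**
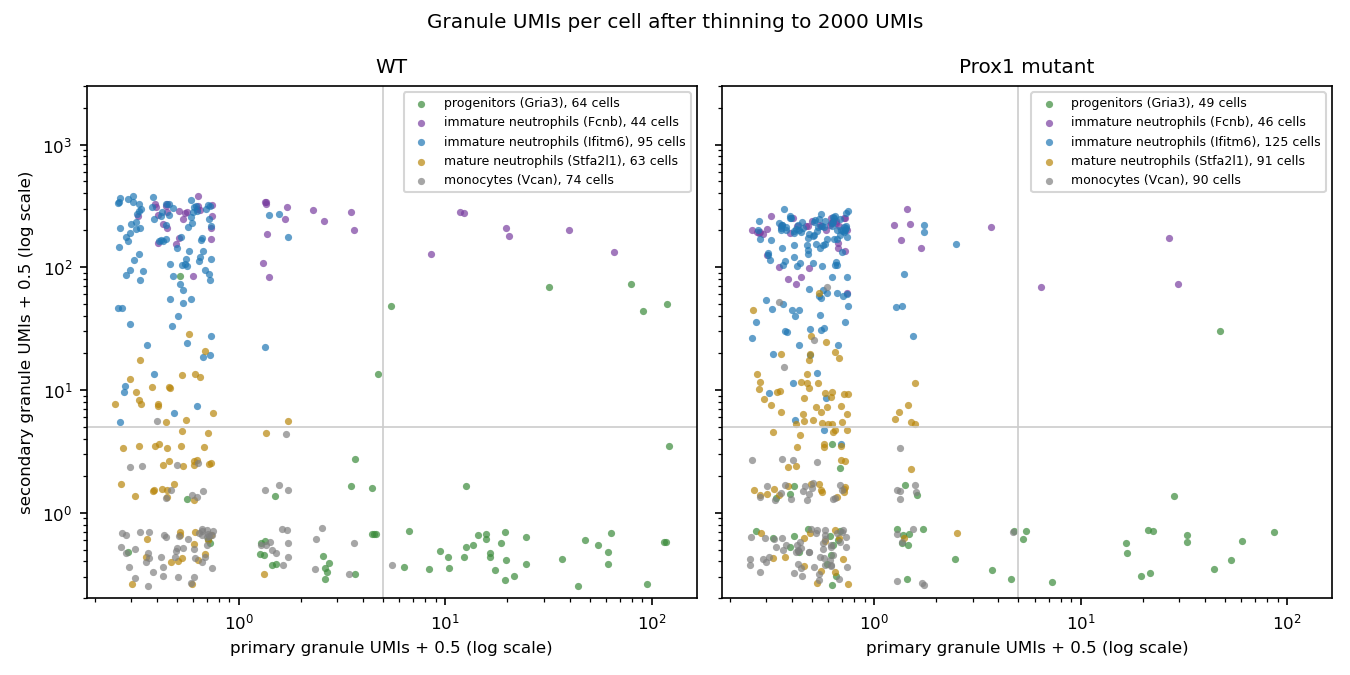
Primary (horizontal) against secondary (vertical) granule UMIs of single cells after thinning to 2000 UMIs, both plus 0.5 on log axes and shifted slightly at random, in 5 clusters, WT left and Prox1 mutant right, with lines at 5 UMIs. Gria3 progenitors spread along the horizontal axis, immature neutrophils along the vertical axis, and 5 WT and 1 mutant Gria3 cells lie beyond both lines.

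Within the immature neutrophils the primary transcripts sat almost entirely in the Fcnb cluster. In WT, Elane stood at 1159 CPM in the Fcnb cells and 1.78 CPM in the Ifitm6 cells, with 1097 and 2 UMIs. In the mutant, Elane stood at 434 and 10.3 CPM, with 492 and 16 UMIs. Prtn3 was 51.8-fold (31.7 to 91.1) higher in Fcnb than in Ifitm6 cells in WT and 35.4-fold (18.9 to 74.7) in the mutant. Mpo stood at 131 CPM in WT versus 45.9 CPM in mutant Fcnb cells, and at 2.66 and 10.3 CPM in Ifitm6 cells.

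The secondary members split between the clusters in 2 ways. Camp was 1.69-fold (1.67 to 1.72) and Ngp 1.31-fold (1.29 to 1.33) higher in Fcnb than in Ifitm6 cells in WT, and 1.54-fold (1.52 to 1.56) and 1.20-fold (1.18 to 1.22) in the mutant. Ltf was instead 1.30-fold (1.26 to 1.34) and Lcn2 1.19-fold (1.17 to 1.22) lower in Fcnb cells in WT, and 1.21-fold (1.18 to 1.25) and 1.20-fold (1.17 to 1.23) lower in the mutant. These directions were the same in both libraries for each of the 4 genes.

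In mature neutrophils the secondary transcripts were low, with Camp and Ltf at background in WT, and the primary transcripts were at background. A shallow unnamed cluster led by Abca13, which also raised mature markers, held more secondary transcript and was not counted in this class. Against immature neutrophils, 4 of 4 secondary members were at least 2-fold lower in WT, where 18.3% of 7842 genes were, and 4 of 4 in the mutant, where 13.2% of 8665 genes were. No member was at least 2-fold higher, against 17.6% of genes in WT and 19.2% in the mutant. Of the primary members, 4 of 4 in WT and 2 of the 3 tested in the mutant were lower. The primary members summed to 27.1 CPM in WT versus 38.4 CPM in mutant mature neutrophils, where the highest of B cells, T cells and endothelial cells stood at 27.0 and 44.3 CPM.

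The secondary members did not fall by the same fold from immature to mature neutrophils. Lcn2 fell least, by 11.6-fold (10.8 to 12.5) in WT versus 6.07-fold (5.82 to 6.34) in the mutant. Camp fell most, by 257-fold (216 to 308) in WT versus 40.0-fold (37.5 to 42.6) in the mutant. Ngp fell by 103-fold (90.5 to 117) in WT versus 18.7-fold (17.9 to 19.5) in the mutant, and Ltf by 122-fold (91.9 to 165) and 13.2-fold (12.4 to 14.2). Ngp and Ltf lay between Lcn2 and Camp in both libraries, and their WT intervals overlapped. In WT mature neutrophils, Camp stood at 176 CPM and Ltf at 65.1 CPM. Both lay below the highest of WT B cells, T cells and endothelial cells (199 and 77.2 CPM). Background thus limits the WT folds of Camp and Ltf and their place in the order. The size of the falls rested on few mature cells, since 2 of 160 mutant cells held 50% of the mature Camp UMIs. Without likely doublets, mutant Camp stood at 30924 CPM in immature and 133 CPM in mature neutrophils. Under stricter filters, with 1000 genes or more per cell and mitochondrial UMIs below 5%, WT Camp stood at 49657 CPM in immature and 3905 CPM in mature neutrophils, a smaller fall than the 257-fold above.

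Among mature neutrophils, the Stfa2l1 cells kept more secondary transcript than the Csf1 cells. Lcn2 was 3.56-fold (2.96 to 4.30) lower in Csf1 than in Stfa2l1 cells in WT and 3.88-fold (3.26 to 4.65) lower in the mutant. Ngp was 6.16-fold (4.09 to 9.65) lower in WT and 10.3-fold (7.74 to 14.0) lower in the mutant. Ltf did not keep 1 direction, being 2.66-fold (1.42 to 5.19) higher in Csf1 cells in WT, from 32 and 16 UMIs, and 2.24-fold (1.80 to 2.81) lower in the mutant. The Ngp and Ltf folds rested on few cells, and Ltf was at background in WT mature neutrophils as a whole. Over both clusters, 2 of 178 WT and 2 of 160 mutant cells held 50% of the Ngp UMIs. For mutant Ltf, 2 cells held 50%.

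Shares of cells with a transcript were read after thinning to 2000 UMIs and beside a class that should lack the genes. At that depth, Lcn2 was found in 100% of immature neutrophils of both libraries, in 50.4% of 135 WT and 67.4% of 138 mutant mature neutrophils, and in 3.73% of 964 WT and 5.59% of 519 mutant endothelial cells. Camp was found in 94.2% of WT and 96.5% of mutant immature neutrophils, but in 17.8% and 18.8% of mature neutrophils and in 9.34% and 16.0% of endothelial cells. The mutant share of Camp in mature neutrophils thus lay close to that in endothelial cells, and the Lcn2 shares did not. Without thinning the median depths were 2903.5 UMIs in WT and 5048 in mutant mature neutrophils and 4482 and 5970.5 in endothelial cells, and 43 WT and 22 mutant mature neutrophils were too shallow to be thinned.

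Among the primary members, Prtn3 was found in the largest share of progenitors. After thinning it was found in 70.0% (59.4 to 79.2) of WT and 43.7% (31.9 to 56.0) of mutant progenitors, against 1.45% and 1.93% of endothelial cells. Elane was found in 43.3% and 33.8%, Mpo in 43.3% and 28.2%, and Ctsg in 44.4% and 26.8% of progenitors. Each mutant share was below the WT share. For Prtn3 the intervals did not overlap, but they count cells of 1 library per genotype and do not measure a spread between animals.

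Against WT, the mutant library held less of the primary transcripts in progenitors. Prtn3 was lower by 1.20 on the log2 scale, Elane by 0.94, Ctsg by 0.92 and Mpo by 0.38, and the sum had a log2 ratio of -0.94 (-0.98 to -0.90). Prtn3 was the 1 of 4 primary members at least 2-fold lower, where 7.89% of 10232 genes changed by that much in either direction. Elane, Prtn3 and Ctsg were below WT in 12 of 12 alternative analyses and Mpo in 11 of 12. In the Gria3 cells the sum was 1.98-fold (1.93 to 2.03) lower in the mutant, and in the Angpt1 cells it was 1.33-fold (1.16 to 1.52) higher.

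The UMIs behind these sums came from few cells. In WT, 10 of 90 progenitors held 50% of the primary UMIs, and in the mutant 5 of 71 did. Haemoglobin transcripts, which mark red cells or their free RNA, stood at 215 CPM in WT versus 8498 CPM in mutant Gria3 progenitors, and the median depth was 23458.5 and 26494 UMIs. The part of haemoglobin and of the cells captured in the difference between libraries was not tested.

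Secondary transcripts in progenitors were also lower in the mutant library, with a log2 ratio of -3.12 (-3.24 to -3.01) for the sum. Mutant Ltf, Lcn2 and Ngp lay below background there, as given above, which limits this ratio. All 4 secondary members were at least 2-fold lower, where 7.89% of 10232 genes changed by that much in either direction. The sums rested on the 3 WT cells and 1 mutant cell described above. With likely doublets removed the log2 ratio was -1.14, and Ltf was above WT in 2 of 12 alternatives and Lcn2 in 1 of 12.

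In immature neutrophils the primary members were lower in the mutant and the secondary members changed less. The log2 ratio was -1.49 for Elane, -1.27 for Mpo, -1.78 for Prtn3 and -1.48 for Ctsg, all with the same sign in 12 of 12 alternatives. All 4 were at least 2-fold lower, where 8.13% of 8906 genes changed by that much in either direction. Within the Ifitm6 cells alone the primary sum was not lower, at 22 UMIs in WT and 47 in the mutant, 1.55-fold higher (0.918 to 2.71). In immature neutrophils as a whole 3 of 139 WT and 2 of 171 mutant cells held 50% of the primary UMIs, so the ratio compares a handful of cells.

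The secondary members were spread over many immature neutrophils, with 50% of their UMIs in 36 WT and 46 mutant cells. Camp stood at 45311 CPM in WT versus 29666 CPM in the mutant, a log2 ratio of -0.61. Ltf stood at 7935 and 9088 CPM, a log2 ratio of 0.20 in the other direction. The log2 ratios of Lcn2 and Ngp were -0.27 and -0.20. No secondary member passed 2-fold, and each kept its sign in 12 of 12 alternatives, so Ltf was higher and the other 3 lower in the mutant library throughout.

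The opposite signs of Camp and Ltf appeared within each immature cluster. In Fcnb cells the mutant was 1.57-fold (1.55 to 1.59) lower for Camp and 1.19-fold (1.15 to 1.23) higher for Ltf. In Ifitm6 cells it was 1.42-fold (1.40 to 1.45) lower for Camp and 1.11-fold (1.08 to 1.13) higher for Ltf. Haemoglobin stood at 217 CPM in WT versus 11477 CPM in mutant Fcnb cells, and at 1797 and 9169 CPM in Ifitm6 cells, and its part in these differences was not tested. With the members left out of the scaling, the log2 ratio of the secondary sum was -0.37, against -0.34 (-0.35 to -0.33) as reported.

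In mature neutrophils the secondary members were higher in the mutant library, with a log2 ratio of 1.51 (1.42 to 1.60) for the sum. Ltf had a log2 ratio of 3.40, Ngp of 2.26, Camp of 2.07 and Lcn2 of 0.67. The WT levels of Ltf and Camp were at background, as given above, which limits their ratios. At least 2-fold higher were 3 of 4 secondary members and the 1 primary member with enough UMIs (Mpo, 2.31-fold with an interval from 0.927 to 6.90), where 13% of 6887 genes changed by that much in either direction. Mpo was at background, at 18.8 CPM in the mutant and 8.13 CPM in WT. The highest of B cells, T cells and endothelial cells stood at 21.6 and 7.47 CPM. In the mutant 3 of 160 cells held 50% of the secondary UMIs. The sum reversed to -0.87 with only cells of at least 1000 genes and under 5% mitochondrial UMIs and to -0.71 with classes drawn from marker UMIs, and it stood at 0.57 without likely doublets. Haemoglobin stood at 404 CPM in WT versus 14615 CPM in mutant Stfa2l1 cells, and its part was not tested.

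In monocytes, Prtn3 was the primary member that stood apart. Prtn3 stood at 160 CPM (136 to 188) in WT versus 23.0 CPM (15.4 to 33.0) in mutant monocytes, 6.97-fold (4.66 to 10.8) lower, and was below WT in 12 of 12 alternatives. After thinning, 25.7% (16.2 to 37.2) of WT and 5.56% (1.83 to 12.5) of mutant monocytes held it. Of the primary members, 2 had enough UMIs, and both (Elane and Prtn3) were at least 2-fold lower in the mutant, where 13.6% of 8110 genes changed by that much in either direction.

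The secondary members were higher in mutant monocytes, 4 of 4 by at least 2-fold, where 13.6% of 8110 genes changed by that much in either direction. The sum stood at 147 CPM in WT versus 3106 CPM in the mutant. The highest of WT B cells, T cells and endothelial cells stood at 685 CPM. The WT term thus lay below background, which limits these folds. Among the 94 mutant cells, however, 1 cell held 53.4% of the secondary UMIs and 3 cells held 93.6%. The log2 ratio of 4.40 (4.15 to 4.65) was 3.65 without the cell with the most UMIs in each library, 0.58 without likely doublets and -0.74 with log-normalization. After thinning, Camp was found in 8.11% of WT and 13.3% of mutant monocytes, below its shares in endothelial cells.

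Genes known to share the granules with the members moved with them to different extents. Against progenitors, 7 of 7 other secondary granule genes were at least 2-fold higher in immature neutrophils in both libraries, where 8.58% of all genes tested were in WT and 7.89% in the mutant. Their median log2 ratios were 3.72 in WT and 3.68 in the mutant. Olfm4, which encodes olfactomedin 4, rose by 7.49 and 8.97 on the log2 scale, and Cd177, a neutrophil surface protein, by 4.34 and 5.13. Mmp8, the neutrophil collagenase, rose by 3.72 and 3.68. In mature neutrophils Mmp8 stayed near its immature level, with log2 ratios of -0.43 and -0.25, while the 4 secondary members had ratios from -8.01 to -2.60.

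The tertiary granule genes, whose products are made last, were at least 2-fold higher in immature neutrophils than in progenitors for 5 of 6 genes in both libraries, against the same 8.58% and 7.89% of all genes tested. Mmp9, the gelatinase that defines these granules, had log2 ratios of 4.32 in WT and 4.93 in the mutant. In mature over immature neutrophils Mmp9 had ratios of 0.35 and -0.12 and Slc11a1, a metal transporter, 3.01 and 1.96. All 3 inhibitors of the granule proteases were at least 2-fold higher in immature neutrophils than in progenitors in both libraries, against those same shares of all genes. Slpi, the secretory leukocyte peptidase inhibitor, rose further in mature neutrophils by 1.79 and 1.21. It was the 1 of 3 inhibitors at least 2-fold higher there, while 1 in WT and 2 in the mutant were lower. Of the 6 tertiary genes, 1 was higher and 1 lower in each library. Of all genes tested, 17.6% were higher and 18.3% lower in WT, and 19.2% and 13.2% in the mutant.

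Of 5 other primary granule genes tested, 2 in WT and 3 in the mutant were at least 2-fold lower in immature neutrophils than in progenitors, near the 40.8% and 44.7% of all genes tested that were. Ctsc, the cathepsin C that activates the granule serine proteases, was lower by 2.18 in WT and 2.37 in the mutant on the log2 scale, and Prss57, a serine protease, by 1.34 and 1.20. Cd63, a granule membrane protein, was higher by 1.21 and 0.94. Srgn, the proteoglycan that retains granule contents, had log2 ratios of -0.29 and -0.14.

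Among 6 transcription factors of the lineage, Cebpa, Myb and Runx1 were at least 2-fold lower in immature neutrophils than in progenitors in both libraries, with log2 ratios of -2.01, -2.33 and -1.26 in WT. The 3 of 6 stood near the same 40.8% and 44.7% of all genes. Spi1, which encodes PU.1, had log2 ratios of 0.46 and 0.34. Of the receptors, Fpr2, which binds the peptide made from Camp, was higher by 4.23 and 4.45 on the log2 scale. Lrp1, an endocytic receptor, had log2 ratios of -0.73 in WT and -1.01 in the mutant, and Slc22a17 and Lrp2, which bind lipocalin 2, had too few UMIs. Between the libraries, 0 genes of all these other lists changed by 2-fold in immature neutrophils, where 8.13% of 8906 genes did in either direction, and the other primary genes had a median log2 ratio of -0.45.

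Over 12 cell classes in each library, 24 points in all, the genes whose levels followed the summed primary members most closely among 9770 were Ms4a3 (Pearson r = 0.94), Prss57 (0.89), Nkg7 (0.88), Kcnk12 (0.87) and Nrg4 (0.82). Those that followed the summed secondary members were Cd177 (0.94), Adpgk (0.93), Slco4c1 (0.92), Abca13 (0.92) and Ly6g (0.92). Ms4a3, Adpgk and Ly6g were also markers used to name classes, and points of 1 library share its depth and free RNA. The members' own correlations with the sum of their kind ran from 0.91 to 0.99, but each member is part of that sum, so high values are built in.

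Outside the neutrophil lineage, the secondary members' proportions showed where transcripts did not look like those of immature neutrophils. Immature neutrophils held 0.279 Lcn2 UMIs per Camp UMI in WT and 0.353 in the mutant. Chondrocytes held 0.257 and 0.337, and smooth muscle cells 0.431 and 0.357. A mesenchymal cluster led by Prg4, which encodes lubricin, held 5.38 (4.27 to 6.86) in WT versus 7.95 (6.46 to 9.88) in the mutant. Endothelial cells led by Ubd and Selp held 3.37 (2.49 to 4.61) in WT versus 0.921 (0.565 to 1.498) in the mutant. Mature neutrophils held 6.17 (5.12 to 7.48) and 2.32 (2.15 to 2.51).

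Part of the Ltf UMIs of the mutant library lay in a cluster outside the neutrophils. This unnamed cluster, led by Wfdc18, Lipf and Bpifb1, raised 2 epithelial markers and had a median of 1415 UMIs over both libraries. It held 378 mutant and 25 WT cells, and the part of the cells captured was not tested. There Ltf stood at 6289 CPM (6177 to 6403) in the mutant and 81.3 CPM (49.7 to 126) in WT. The cluster held 24.8% of all Ltf UMIs of the mutant library. Its mutant cells held 5.41 (5.16 to 5.66) Ltf UMIs per Camp UMI, against 0.306 (0.302 to 0.311) in mutant immature neutrophils. Of all Ltf UMIs, progenitors and neutrophils held 87.7% in WT and 52.7% in the mutant, the lowest share among the 8 genes in the mutant.

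**Figure D3:**
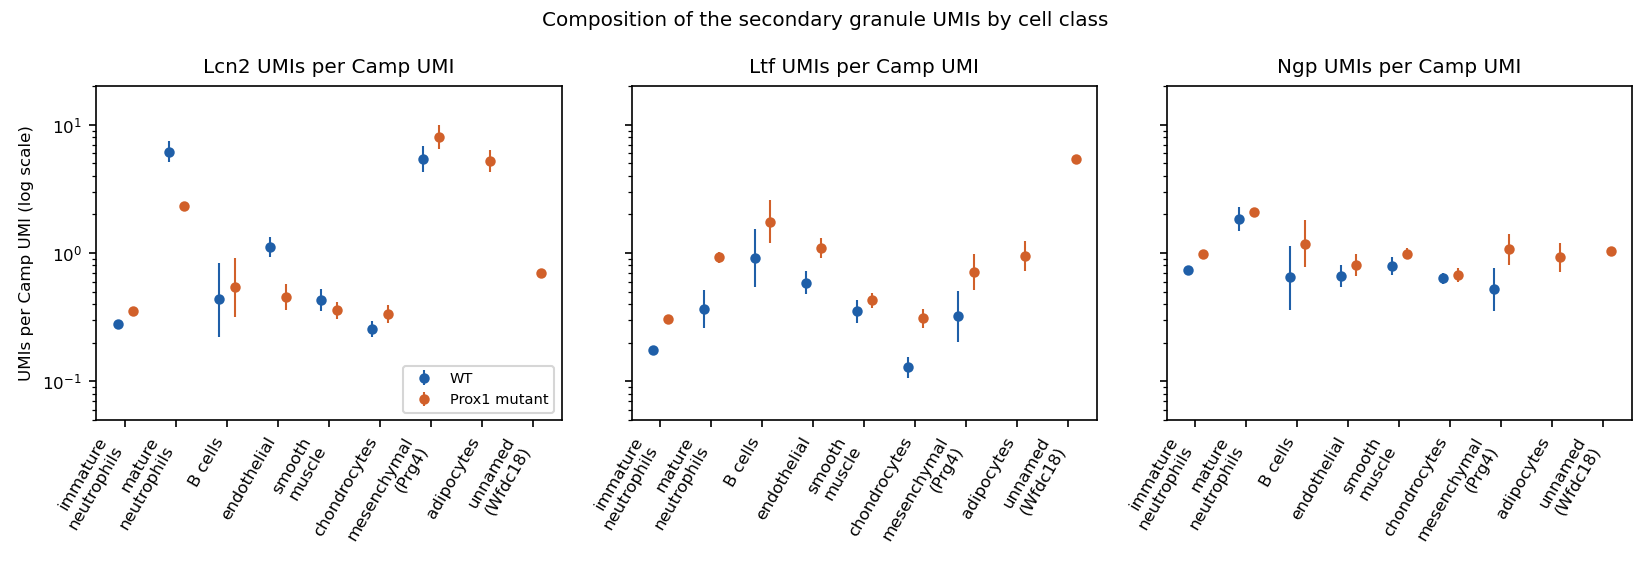
UMIs of a secondary granule gene per Camp UMI (log axis) by cell class or cluster in WT and Prox1 mutant, with exact binomial 95% intervals. Lcn2 per Camp is 0.279 and 0.353 in immature neutrophils and 5.38 and 7.95 in the Prg4 mesenchymal cluster, and Ltf per Camp reaches 5.41 in the mutant cluster led by Wfdc18.

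Mast cells and basophils also held primary transcripts. Their cluster raised Cpa3, Mcpt8, Fcer1a and Ms4a2 but also 3 progenitor markers, and the division genes summed to 882 CPM in WT versus 959 CPM in the mutant. In the 12 WT cells, Ctsg stood at 2700 CPM (2439 to 2981) and Mpo at 875 CPM (729 to 1041), while Elane had 0 UMIs of 145205, which allows a level of up to 20.7 CPM. Prtn3 stood at 41.3 CPM there (6 UMIs), against at most 9.01 CPM in WT B cells, T cells and endothelial cells. In the 17 mutant cells, Ctsg stood at 844 CPM and Mpo at 1110 CPM, and Elane and Prtn3 at 127 CPM each (11 UMIs each), against at most 9.99 and 13.2 CPM in those control classes. In the mutant 3 cells held all Ctsg and all Mpo UMIs, so these levels describe few cells.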

How the data were processed

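The authors aligned the reads to the mouse genome mm10 with Cell Ranger 7.0.1 and deposited, for each of the 2 libraries, raw UMI counts of genes per barcode. The labels name a v2 kit and the study's methods a v3.1 kit. No column belonged to other samples (0).

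Barcodes that showed 500 genes or more and had less than 10% mitochondrial UMIs were clustered with Seurat 5.3.0 (sctransform 0.4.2, 3000 features, 200 components, resolution 1.5), with the 8 members left out of the features, and myeloid cells were clustered again (30 components, resolution 1.0). A cluster was named from at least 3 markers raised 2-fold and found in 10% of its cells. Doublets were scored with Scrublet in scanpy 1.11.5 among 5469 WT and 7603 mutant barcodes with 200 genes or more. Its automatic threshold marked 0 cells, and likely doublets were kept. As an alternative, the 239 WT and 462 mutant barcodes with the highest scores were taken as likely doublets and removed. These numbers were set from an assumed doublet rate and count all scored barcodes, not only kept cells. UMIs were summed per class and library. Shares were read after thinning each cell to 2000 UMIs. Intervals are exact at 95% (scipy 1.17.1), except the normal approximation for the drop in log2 primary over secondary. The ratio intervals were run on simulated Poisson counts, the model they assume, which cannot show how they cover a spread between cells. A count of 0 was given a limit of 3 UMIs. Genes were called at 2-fold with at least 20 UMIs and 0.5 added to each count, and likeness used log2(CPM + 5) over classes of at least 50 cells. No test between genotypes was made, since each had 1 library. The named genes are the 8 members, listed genes of the same granules and the 5 genes most like each kind. The members and lists were chosen with earlier results of these data known. The granule levels of 1 cluster are not reported here.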

Additional observations from a re-analysis of the deposited data

Results flagged for a closer look

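The log2 ratio of the mutant over the WT library for the summed secondary members took opposite signs in different classes: -3.12 in progenitors, -0.34 in immature neutrophils, 1.51 in mature neutrophils and 4.40 in monocytes. The difference between classes was not tested, since each genotype had 1 library. As described above, background limits the mutant term in progenitors and the WT term in monocytes. It also limits Ltf and Camp in WT mature neutrophils.

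Granule transcripts at least 20 times above the highest of B cells, T cells and endothelial cells stood in clusters outside the named myeloid classes. The primary members summed to 1389 CPM in 99 mutant cells of a Schwann cell cluster. They summed to 6489 CPM in 33 mutant cells of an unnamed cluster led by Fmod, against 44.3 CPM in those control classes. The Fmod cluster went into the myeloid clustering but raised the mesenchymal markers Dcn, Col3a1, Igfbp6, Col1a2, Lum and Pdgfra. Among others, it also raised 6 erythrocyte, 5 B cell and 2 progenitor markers, at a median of 3070 UMIs over both libraries. The secondary members summed to 19896 CPM in 90 mutant cells of an unnamed myeloid cluster led by Gzma, against 665.9 CPM. In a cluster led by Abca13, whose cells had a median of 1174 UMIs in WT and 1124 in the mutant, they summed to 23784 CPM in 30 WT cells and 17370 CPM in 108 mutant cells, against 685 CPM in the WT control classes and 665.9 CPM in the mutant ones. Haemoglobin stood at 131063 CPM in the mutant Fmod cluster, and its part was not tested.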

How the results depend on the processing

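The drop in log2 primary over secondary from progenitors to immature neutrophils was 8.15 in WT and 11.56 in the mutant, and kept its direction in 12 of 12 alternatives. The mutant drop is limited by background, as described above. In WT it was 8.51 with looser cell filters (200 genes or more, mitochondrial share below 20%), 8.57 with stricter ones (1000 genes or more, below 5%), 10.70 without likely doublets, 8.70 with libraries merged without integration, 8.66 with log-normalization, 7.97 at resolution 2.0, 9.12 with the members kept for clustering, 10.31 with classes from marker UMIs, 8.91 as a mean over cells and 8.97 without the cell with the most UMIs. In the mutant it was 11.88 with at least 1000 genes, 11.92 without likely doublets, 11.73 merged, 11.36 with log-normalization, 13.46 with marker UMIs, 11.90 as a mean over cells and 13.20 without the top cell.

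The log2 ratio of mutant over WT for the primary sum in progenitors (-0.94) was -1.08 with at least 200 genes, -0.76 without likely doublets, -1.14 merged, -1.03 with log-normalization, -0.88 with the members kept, -0.69 with marker UMIs and -1.04 without the top cell. That of the secondary sum in immature neutrophils (-0.34) was -0.31 with at least 200 and with at least 1000 genes, -0.42 without likely doublets, -0.46 merged, -0.57 with log-normalization, -0.41 at resolution 2.0, -0.39 with the members kept, -0.56 with marker UMIs, -0.37 scaled to the other genes, -0.36 as a mean over cells and -0.48 with 2 unnamed clusters that raised immature markers (32 WT and 164 mutant cells).

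The secondary sum reversed in mature neutrophils (1.51) to -0.87 with at least 1000 genes and to -0.71 with marker UMIs, and in monocytes (4.40) to -0.74 with log-normalization; the cause was not tested. Without likely doublets it was 0.57 and 0.58. Leaving out the top cell and adding the unnamed clusters were chosen after seeing the data. Thinned to 1000 UMIs, 42 shares stayed within their interval and 22 moved, and without thinning 23 stayed and 41 moved. No paired analysis was possible because each genotype had 1 library and no result came from a test.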
